A study of Mus musculus with 14 samples.

Results

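Pressure overload on a high-fat diet was examined here through one comparison: H3K9ac in hearts after transverse aortic constriction (TAC), a ligature on the aortic arch that makes the left ventricle pump against a narrowed vessel, against hearts after sham surgery, with both groups on a diet giving 60% of its energy as fat. The mice were C57BL/6J males aged 12 weeks, put on the diet 4 days before surgery and kept on it for 1 week after. Each library came from a pool of 3, with 1 TAC library and 1 sham library, so the spread between animals is not known. All 38150 regions of the table that held this pair were taken. Of these, 18950 lay at a promoter, from 7500 bp upstream to 2500 bp downstream of a gene start, and 19200 lay elsewhere. The same table held a TAC and a sham library from mice on a 10% fat diet, which share no library with the 60% fat pair and are given beside it. The pair is 2 of the 14 samples of a series that also covered a fat-free diet and a second mark, butyrylation of the same residue. Chromatin came from heart tissue with no sorting of cells in the labels, so a change in the cells it holds and a change within a cell type cannot be told apart.

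H3K9ac is acetylation of lysine 9 on histone H3. It marks the starts of genes that are being transcribed and part of the enhancers, and it is laid down by acetyltransferases that draw on acetyl-CoA, which in the heart comes largely from fatty acids. Pressure overload is known to bring back fetal genes in cardiomyocytes, to activate fibroblasts and to draw in immune cells, while genes of fatty acid use and of electrical conduction are known to be transcribed less.

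The deposited values are average tag densities, that is, the depth of sequenced fragments over a region, and they are called signal here. Signals summed over the regions amounted to an estimated 8668333 tags in the TAC library and 7936243 in the sham library at 60% fat, and to 8368113 and 8228850 at 10% fat. The median promoter signal was 43.0 in the TAC library and 37.4 in the sham library at 60% fat, against 40.9 and 39.2 at 10% fat. Ratios are therefore given as log2 of TAC over sham, each with 1 added, relative to the median over promoter regions, which was 0.15 as deposited. A region is called when it is at least 1.5-fold higher or lower on that scale. With 1 library on each side no test between conditions is possible. Intervals in square brackets are 95% Clopper-Pearson intervals on the estimated tags, and they cover counting error only.

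Genes of cell division led the promoters that were higher after TAC. Mki67, which encodes the proliferation marker Ki-67, had a promoter signal of 60.9 in the TAC library and 17.5 in the sham library at 60% fat, a relative log2 ratio of 1.6 [1.32, 1.87]. At 10% fat its signals were 32.0 after TAC and 16.5 after sham, so the TAC library at 60% fat was the highest of the 4 and the 2 sham libraries were alike. Cdk1, the kinase that drives entry into mitosis, had 48.6 after TAC and 16.5 after sham at 60% fat (1.35 [1.11, 1.59]), against 28.6 and 18.5 at 10% fat. Aurkb, the kinase of the chromosomal passenger complex, had 79.4 and 29.4 at a region 420 bp downstream of its start, a ratio of 1.25. Top2a, the topoisomerase that untangles sister chromatids, had 54.6 and 19.8 (1.27), and Aspm, a spindle pole protein, had 45.1 and 16.7 (1.23). The 10 highest promoters, ranked among those whose larger signal reached the promoter median, were completed by Knstrn and Ska1 of the spindle and kinetochore, by E2f8, a repressor of the E2F family, by a histone H3 and H2A gene cluster at Hist2h3c2 (47.6 after TAC and 14.3 after sham, 1.52), and by a chromosome 4 region. The files assign that last region to Paqr7 and Clhc1 (44.7 and 14.3, 1.43), while RefSeq places Aunip, a partner of the mitotic kinase Aurora A, there. All 10 of these regions overlapped a CpG island, and in all 10 the TAC library at 60% fat was the highest of the 4 libraries. Ranking by the 60% fat ratio favours that order, and the signal filter could be passed through the TAC library alone.

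The promoters that were lowest after TAC included those of muscle and metabolic genes, beside genes of other kinds. Sgca, which encodes alpha-sarcoglycan of the muscle membrane, had 25.2 after TAC and 52.7 after sham at 60% fat, a ratio of -1.18 [-1.43, -0.94], against 43.1 and 56.8 at 10% fat. A region shared by Tnni3, cardiac troponin I, and the adjoining Tnnt1 had 27.8 and 47.5 (-0.90). Agpat2, an acyltransferase of phospholipid and triglyceride synthesis, had 30.3 and 57.5 at a region upstream of its start (-1.05). Corin, the cardiac protease that activates atrial natriuretic peptide, had 27.3 and 46.1 (-0.88). Hif3a, of the hypoxia-inducible factor family, had 29.7 and 50.5 (-0.89). The kinase genes Mknk2 and Wnk2 both had a ratio of -1.01, at Mknk2 from a region of 235 bp [-1.68, -0.32] not called in the sham library. Rgcc had -0.95 at a region centred 4853 bp from its start, and Arhgap20 had -0.89. Some of these were not the strongest promoter region of their gene. At the strongest one Rgcc had 91.9 and 98.3 (-0.26) and Corin 52.2 and 60.7 (-0.38), relative to the median of all genes. In each of the 9 lowest regions named here the TAC library at 60% fat was the lowest of the 4, an order that the ranking again favours. Of these 9 regions, 7 had no CpG island.

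**Figure D1:**
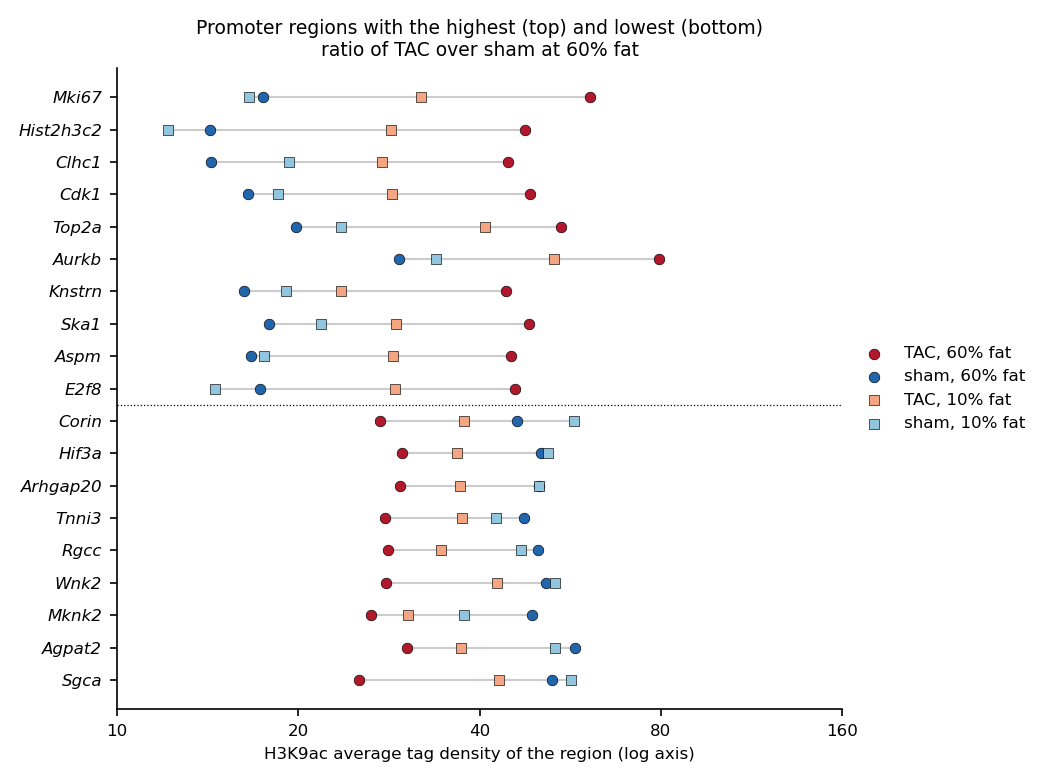
H3K9ac signal (average tag density, log axis) in each of the 4 libraries at 10 promoter regions with the highest and 9 with the lowest ratio of TAC over sham at 60% fat. One marker stands for 1 library, circles for 60% fat and squares for 10% fat, and in every row the TAC library at 60% fat lies at one end, as at Mki67 (60.9 against 17.5) and Sgca (25.2 against 52.7). The rows were chosen by the 60% fat ratio, which favours that place.

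The sequences of 7 promoters are shown as examples of mitotic and of heart muscle genes. They were chosen by name, and Ccnb2, Nppb and Actc1 were not among the extreme regions named above. Each runs from 250 bases before to 50 after a RefSeq start (GRCm38.p6), in the direction of the gene. The first 4 are mitotic genes, with capitals for the cell cycle homology region motif TTTGAA (CHR) and the CCAAT box CCAAT, on either strand. The other 3 are heart muscle genes that moved in opposite directions, with capitals for the CArG box, the M-CAT motif CATTCC and the TATA motif TATAA. Nppb was higher after TAC, Actc1 and Sgca were lower, and the Sgca promoter held none of these motifs nor the MEF2 site.
Mki67, chr7:135716330-135716629, minus strand: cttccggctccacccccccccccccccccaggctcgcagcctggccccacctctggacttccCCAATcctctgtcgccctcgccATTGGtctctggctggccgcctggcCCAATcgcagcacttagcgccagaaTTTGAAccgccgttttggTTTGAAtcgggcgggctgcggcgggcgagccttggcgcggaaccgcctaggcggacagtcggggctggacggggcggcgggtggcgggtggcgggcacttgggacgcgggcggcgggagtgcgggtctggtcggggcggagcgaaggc
Cdk1, chr10:69352863-69353162, minus strand: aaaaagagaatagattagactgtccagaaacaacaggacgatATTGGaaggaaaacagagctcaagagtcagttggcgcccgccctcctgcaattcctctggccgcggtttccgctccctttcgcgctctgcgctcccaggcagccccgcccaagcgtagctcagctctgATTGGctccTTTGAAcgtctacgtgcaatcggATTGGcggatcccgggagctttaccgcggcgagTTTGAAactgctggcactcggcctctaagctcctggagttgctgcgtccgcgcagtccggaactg
Ccnb2, chr9:70421505-70421804, minus strand: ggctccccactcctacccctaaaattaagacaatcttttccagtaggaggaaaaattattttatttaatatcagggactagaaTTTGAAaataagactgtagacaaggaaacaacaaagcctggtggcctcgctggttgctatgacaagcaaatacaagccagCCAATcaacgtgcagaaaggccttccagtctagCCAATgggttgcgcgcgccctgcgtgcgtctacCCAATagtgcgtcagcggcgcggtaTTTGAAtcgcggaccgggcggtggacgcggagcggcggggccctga
Aspm, chr1:139454523-139454822, plus strand: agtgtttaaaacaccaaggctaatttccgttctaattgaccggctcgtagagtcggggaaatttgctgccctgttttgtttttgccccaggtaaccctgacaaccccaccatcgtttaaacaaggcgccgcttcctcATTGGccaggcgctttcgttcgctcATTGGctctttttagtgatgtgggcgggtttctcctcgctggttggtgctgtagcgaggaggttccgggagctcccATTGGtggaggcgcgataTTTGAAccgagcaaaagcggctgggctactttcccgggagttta
Nppb, chr4:147985650-147985949, plus strand: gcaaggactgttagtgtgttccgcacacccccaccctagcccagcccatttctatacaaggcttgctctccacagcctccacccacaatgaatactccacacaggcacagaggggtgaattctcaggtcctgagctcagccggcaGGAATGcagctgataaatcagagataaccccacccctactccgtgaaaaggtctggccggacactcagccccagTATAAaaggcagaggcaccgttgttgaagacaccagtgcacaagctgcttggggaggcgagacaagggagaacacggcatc
Actc1, chr2:114052826-114053125, minus strand: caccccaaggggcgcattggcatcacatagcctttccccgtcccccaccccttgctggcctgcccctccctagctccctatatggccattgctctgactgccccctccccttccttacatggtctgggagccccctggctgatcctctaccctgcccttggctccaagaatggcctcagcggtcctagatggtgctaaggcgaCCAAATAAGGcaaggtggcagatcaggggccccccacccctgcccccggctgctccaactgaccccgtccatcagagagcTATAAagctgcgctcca
Sgca, chr11:94976278-94976577, minus strand: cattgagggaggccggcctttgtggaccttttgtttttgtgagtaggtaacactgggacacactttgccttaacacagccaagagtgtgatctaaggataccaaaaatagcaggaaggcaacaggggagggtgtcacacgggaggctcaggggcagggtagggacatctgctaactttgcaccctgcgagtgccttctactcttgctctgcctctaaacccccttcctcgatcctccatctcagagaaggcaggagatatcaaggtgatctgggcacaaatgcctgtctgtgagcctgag

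Motif letters were counted on both strands in the promoters of the 10281 measured genes that had a RefSeq start within 500 bp of the start used in the files. The CHR motif was in 75.9% of 29 mitotic promoters, in 22.8% of the 237 promoters called higher after TAC, in 10.2% of the 127 called lower and in 11.4% of all. CCAAT and CHR were found together in 69.0% of the mitotic promoters against 4.73% of all. Within the mitotic genes the CHR share was 71.4% in the 14 called higher and 80% in the 15 not called. An E2F motif, TTTCCCGC or TTTGGCGC, was in 30.0% of 30 DNA replication promoters and in 3.45% of the mitotic ones, against 3.08% of all. The CArG box, bound by serum response factor, was in 16.7% of 24 sarcomere promoters against 1.26% of all, and the M-CAT motif was in 33.3% against 12.0%. The MEF2 site was in 10.2% of the promoters called lower, against 1.69% of those called higher and 1.71% of all. These shares describe letters in a window of 300 bases and not bound sites. The window lies at the gene start, and the H3K9ac region that was called can lie elsewhere in the promoter.

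Over all promoter regions, 985 (5.2%) were at least 1.5-fold higher after TAC and 1854 (9.78%) at least 1.5-fold lower. The counting interval lay wholly past 1.5-fold at 95 of the higher and 259 of the lower regions. Lower calls were mostly at promoters without a CpG island, and calls in both directions were more frequent there. Of 11361 island promoters, 371 (3.27%) were called higher and 152 (1.34%) lower, whereas of 7589 promoters without an island 614 (8.09%) were called higher and 1702 (22.4%) lower. Among the 9475 promoters whose larger signal reached the class median, 121 were called higher and 68 lower, and an island was present in 76.0% of the higher and 26.5% of the lower, against 86.5% of all 9475. A region could pass this filter through the library in which it was high, so these counts are a description. Median signals were 52.7 after TAC and 27.1 after sham at the 121, and 38.2 and 57.0 at the 68. Promoters without an island also had less signal, with medians of 22.7 after TAC and 22.7 after sham, against 59.8 and 52.5 at island promoters. Regions longer than 4000 bp gave 2 higher and 15 lower calls among 548.

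Most of the lower calls came from regions that the authors' peak caller found in the sham library and not in the TAC library. The table is the union of regions called in any of the 4 libraries. A region called in just 1 library of the pair was chosen partly by its difference, and its count is given as a description. Of 1820 promoter regions called in the sham library alone of the pair, 1426 were at least 1.5-fold lower after TAC, with a median length of 307 bp. Of 1634 called in the TAC library alone, 643 were at least 1.5-fold higher, and of 14656 called in both, 295 were higher and 310 lower. The 14768 promoter regions called in both 10% fat libraries form a set that the 60% fat calls did not choose, and there 422 (2.86%) were higher and 403 (2.73%) lower. The excess of lower over higher promoters in the whole table was not seen in that set on this centring. With the set centred on its own median, 405 were higher and 437 lower.

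Away from promoters, 1960 regions (10.2%) were called higher after TAC and 3346 (17.4%) lower. In the 9279 such regions called in both 10% fat libraries, 407 were higher and 891 lower, so here the lower calls were the more frequent in both sets. Their position made a difference: regions within a single gene were called lower in 2254 of 10765 cases and higher in 964, with a median ratio of -0.12, whereas regions with no gene assigned were called lower in 505 of 4800 and higher in 668, with a median of 0.07. With the trend of the ratio on signal removed by lowess, the counts were 1227 higher and 1640 lower at promoters and 2551 higher and 2747 lower elsewhere. As deposited, without centring, they were 1756 higher and 1369 lower at promoters and 3155 higher and 2276 lower elsewhere. The direction of the excess therefore turns with the centring.

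**Figure D2:**
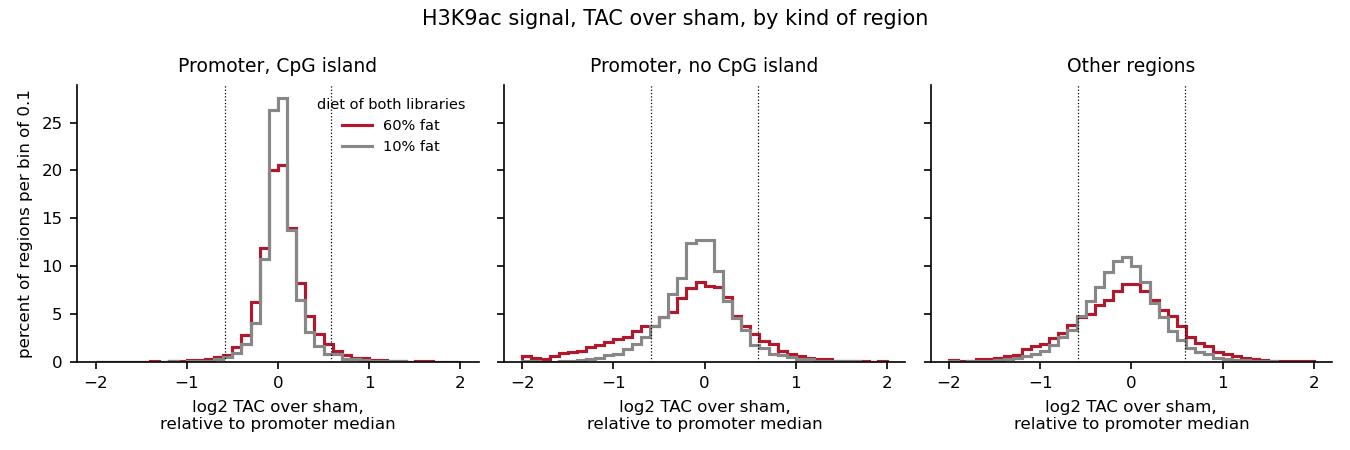
Percent of regions per bin of 0.1 in the relative log2 ratio of TAC over sham, for promoter regions with a CpG island (11361), promoter regions without one (7589) and other regions (19200). Red lines are the 60% fat pair, grey lines the 10% fat pair, the outermost bins hold all values beyond them, and dotted lines mark 1.5-fold; the 60% fat curves are the wider in all 3 panels and have a long lower arm at promoters without an island.

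For gene lists each gene was given its strongest promoter region over the 4 libraries, and ratios were taken relative to the median over the 14011 genes so measured. On that scale 339 genes (2.42%) were higher after TAC at 60% fat and 206 (1.47%) lower, against 109 (0.778%) and 79 (0.564%) for the 10% fat pair. The 339 genes shared 302 distinct regions and the 206 genes 181. Mitotic genes stood on one side almost as a whole. Of 36 measured genes for chromosome segregation, mitotic entry and cytokinesis, 17 were at least 1.5-fold higher, none was that much lower and 35 lay above the median of all genes. The list's median was 0.52 at 60% fat and 0.20 at 10% fat, where 2 of the 36 were called. Its signals summed to 2051 after TAC and 1295 after sham at 60% fat, against 1616 and 1392 at 10% fat.

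Tpx2, which activates Aurora A at the spindle, had 51.4 after TAC and 21.1 after sham at 60% fat (1.08 [0.78, 1.40]), and 29.8 and 21.8 at 10% fat. Ccnb2, cyclin B2, had 43.1 and 18.5 at 60% fat (1.01), and 24.2 and 18.8 at 10% fat. The exception was Kif2c, a kinesin that shortens microtubules, with 73.8 and 85.9 (-0.38), measured at a region far upstream of its start, near the edge of the promoter window. Top2a and Aurkb were measured in the list at upstream regions with the higher mean signal, where their ratios were 0.20 and 0.09, and so were not called there. Among 35 genes of DNA replication 7 were higher, led by the replication initiators Mcm10 (30.2 after TAC and 10.3 after sham, 1.3 [0.73, 1.89]) and Cdc6 (46.4 and 18.6, 1.1). The subunits of the replicative helicase were among those not called, with Mcm7 at 95.2 and 83.8 (0.02) and Mcm2, at a region shared with Tpra1, at 69.6 and 70.5 (-0.18). Of 29 genes of the E2F and Rb circuit 5 were higher: E2f8, E2f7, E2f2, Ccne2 and Mybl2, whose product B-Myb activates mitotic genes (31.2 and 13.2, 1.02 [0.68, 1.37]). The inhibitor Cdkn1c, which holds cells out of the cycle, had the lowest ratio of that list (49.4 and 65.1, -0.56). The 3 lists together gave 29 higher and 0 lower among 100 genes.

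Genes of the matrix and of immune cells also leaned upward, by less. Of 32 matrix genes 6 were higher and none lower, with a median of 0.21. Wisp1, a secreted protein of injured tissue, had 34.8 after TAC and 15.2 after sham (0.98 [0.50, 1.47]), and Cthrc1, made by activated fibroblasts, had 31.7 and 16.5 (0.73). Eln, elastin, had 38.0 and 48.0 (-0.49). Among 16 collagen genes 14 lay above the median and 2 were called, Col18a1 with 31.4 and 14.2 (0.93) and Col15a1 with 45.3 and 24.8 (0.68). Of 17 fibroblast markers 14 lay above the median, 2 were called higher and 1 lower, with a median of 0.24. Mfap4 had 29.4 and 12.1 (1.05) and Meox1, a transcription factor of activated fibroblasts, had 60.1 and 33.5 (0.66), while Scara5, a marker of resting fibroblasts, had 13.7 and 31.6 (-1.32 [-1.57, -1.07]). The general fibroblast markers Pdgfra (45.3 and 38.9, 0.05) and Tcf21 (38.8 and 33.1, 0.06) were near the median.

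Of 19 macrophage markers 17 lay above the median, 4 were called higher and 1 lower, with a median of 0.34 at 60% fat and -0.03 at 10% fat. Laptm5, a lysosomal protein of blood cells, had 32.3 after TAC and 17.7 after sham at 60% fat, and 33.7 and 29.0 at 10% fat. Csf1r, the receptor for the macrophage growth factor, had 58.0 and 40.6 at 60% fat (0.34), and 56.3 and 56.0 at 10% fat. For both genes the sham library at 60% fat was the one that stood apart among these 4. The higher values after TAC were not limited to 60% fat. On the fat-free diet, whose libraries were normalised apart, the list had a median of 0.83 over 15 genes. Csf1r had 59.2 after TAC and 23.6 after sham there (1.04). Of 19 interferon and antigen presentation genes 18 lay above the median, and Oas1a, an antiviral enzyme whose region Oas1d shares, was called higher (31.9 and 15.9, 0.80). The scavenger receptor gene Cd163 was the macrophage marker called lower, with 14.3 and 20 at a short region (-0.62 [-1.30, 0.08]). Tnf, the inflammatory cytokine, had 48.3 and 21.8 (0.95 [0.57, 1.33]) and was the 1 called gene among 17 of NF-kappa-B inflammation. Of the cell types other than cardiomyocytes, endothelial markers gave no calls among 18 (median 0.06) and mural cell markers 1 lower call among 11 (median -0.07).

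**Figure D3:**
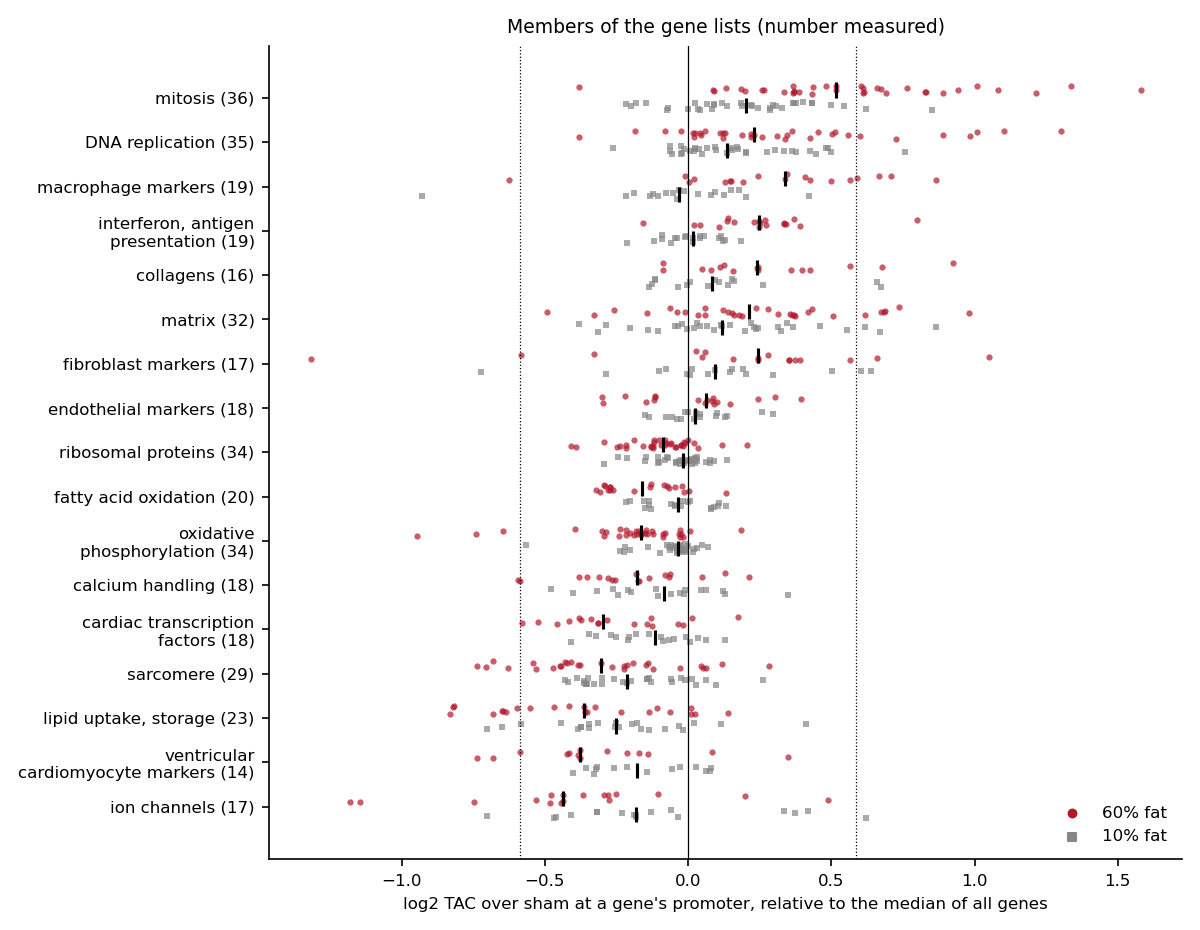
Log2 ratio of TAC over sham at each measured gene's promoter, relative to the median of all genes, for 17 of the gene lists, with the number of measured genes in brackets. One point is 1 gene, red for 60% fat and grey for 10% fat, black bars are list medians and dotted lines mark 1.5-fold; the mitosis list has its median at 0.52 and the ion channel list at -0.43.

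Genes of the working cardiomyocyte lay mostly below the median of all genes, by an amount that depends on the centring. As deposited, the list medians were -0.14 for sarcomere genes, -0.21 for ventricular cardiomyocyte markers and -0.27 for ion channels. They were -0.13 for cardiac transcription factors and -0.01 for calcium handling. Of 29 sarcomere genes 4 were at least 1.5-fold lower after TAC, none was that much higher and 5 lay above the median (list median -0.30 at 60% fat and -0.21 at 10% fat). Actc1, cardiac actin, had 39.9 after TAC and 59.9 after sham (-0.74 [-0.88, -0.60]), and Tcap, which caps titin at the Z-disc, had 80.5 and 117.6 (-0.71). Nebl, the cardiac nebulette of the Z-disc, had 17.9 and 25.1 (-0.63). Flnc, a filamin that responds to strain, had the highest ratio (58.5 and 42.6, 0.28), followed by Synpo2l. Ventricular cardiomyocyte markers gave 3 lower calls among 14 (median -0.38), and their signals summed to 631 after TAC and 715 after sham at 60% fat, against 710 and 781 at 10% fat.

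Ion channels had the lowest median of the lists with 10 or more measured genes, -0.43, with 3 of 17 called lower. Kcnip2, the subunit that sets the fast transient outward potassium current, had 19.0 and 39.4 at 60% fat (-1.18 [-1.42, -0.95]), and 29.1 and 45.9 at 10% fat. Kcnj3, a channel opened by acetylcholine, had 14.2 and 28.9 (-1.14 [-1.70, -0.62]), and Kcnh2, of the rapid delayed rectifier, had 44.1 and 66.5 (-0.75). Of 18 calcium handling genes 2 were called lower, Trdn, triadin of the calcium release unit (35.0 and 47.5, -0.59), and Pln, the brake on the calcium pump (58.8 and 79.1, -0.59). No cardiac transcription factor of 18 was called, but 16 lay below the median, the lowest being Nkx2-5 (36.2 and 48.6, -0.58) and Tbx5 (32.2 and 41.7, -0.53).

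Genes of lipid uptake and storage gave the most lower calls, 8 of 23, with a median of -0.36. Plin5, a coat protein of cardiac lipid droplets, had 53.2 after TAC and 84.2 after sham (-0.82 [-0.96, -0.68]) at a region shared with Lrg1, and Vldlr, a receptor for triglyceride-rich lipoproteins, had 51.4 and 72.3 (-0.65). Angptl4, the inhibitor of lipoprotein lipase that fatty acids induce, had 97.5 and 78.8 at 60% fat (0.14), and 51.5 and 54.4 at 10% fat, so its 2 values at 60% fat were above both values at 10% fat. The enzymes that burn the fat showed small ratios. None of 20 fatty acid oxidation genes was called (median -0.16) and none of 23 citric acid cycle genes (median -0.13), and 3 of 34 oxidative phosphorylation genes were called lower (median -0.17). These 3 medians are close to the centring, and as deposited they were 0.01, 0.03 and 0.00. Of 16 metabolic regulators 3 were called lower. Esrrb, an oestrogen-related receptor, had 23.8 and 40.5 (-0.91) and Klf15, a repressor of hypertrophy, had 59.1 and 82.6 (-0.64). The third, 2310042D19Rik, had 31.7 and 48.8 (-0.77). The coactivator gene Ppargc1a had 45.3 and 55.4 (-0.45).

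Classical load-response genes were mixed. Nppb, brain natriuretic peptide, had 39.3 after TAC and 12.9 after sham at 60% fat (1.37 [1.00, 1.76]), and 38.0 and 15.9 at 10% fat, so its TAC values were alike on both diets. Ankrd1, a strain sensor of the sarcomere, had 40.4 and 22.0 (0.68), and 41.7 and 26 at 10% fat. The other 15 measured genes of that list were not called, among them Myh7, the slow myosin (20.8 and 21.7, -0.23 [-0.86, 0.46]), which shares a cluster with Myh6 (60.6 and 70.7, -0.38). That Myh7 region held few tags, 37 after TAC and 38 after sham. Relative to the promoter median, the Myh7 promoter region nearest the start had 22.0 and 16.4 (0.25 [-0.24, 0.75]). Those farther from the start had -0.75, -0.39, -0.44 and -0.37. Glucocorticoid and fasting genes gave 2 lower calls among 21 (median -0.22), with Ddit4, an inhibitor of mTOR, lowest at 24.5 and 41.9 (-0.91). Immediate early genes gave no calls among 23 (median 0.05) and ribosomal protein genes none among 34 (median -0.09).

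Setting the 4 libraries in order separated these groups further. Each library was centred on its median over the 14011 genes, and the library with the highest and the lowest signal was noted for each gene. Over all genes the TAC library at 60% fat was highest in 29.6% and lowest in 33.1%. It was highest in 33 of 36 mitotic genes and in 26 of 35 replication genes, while 1 of the 2 sham libraries was lowest in 34 of the mitotic genes, 18 with the 60% fat and 16 with the 10% fat sham. It was lowest in 23 of 29 sarcomere genes, 18 of 20 fatty acid oxidation genes, 30 of 34 oxidative phosphorylation genes and 15 of 18 cardiac transcription factors. This order is that of the centred libraries. As deposited, signals at 60% fat summed to 1598.5 after TAC and 1586.6 after sham for fatty acid oxidation. The sums were 2634.6 and 2635.4 for oxidative phosphorylation, 1619.5 and 1748.5 for sarcomere genes, and 880.5 and 916.9 for cardiac transcription factors. Macrophage and interferon genes had another order: the TAC library at 60% fat was highest in 4 of 19 and 6 of 19, but the sham library at 60% fat was lowest in 16 of 19 and 17 of 19, against 26.5% of all genes. The sham library at 60% fat was also the highest of the 4 in 25 of 34 oxidative phosphorylation and 25 of 34 ribosomal protein genes. Whether the make-up of that 1 sham pool bears on those lists was not tested.

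**Figure D4:**
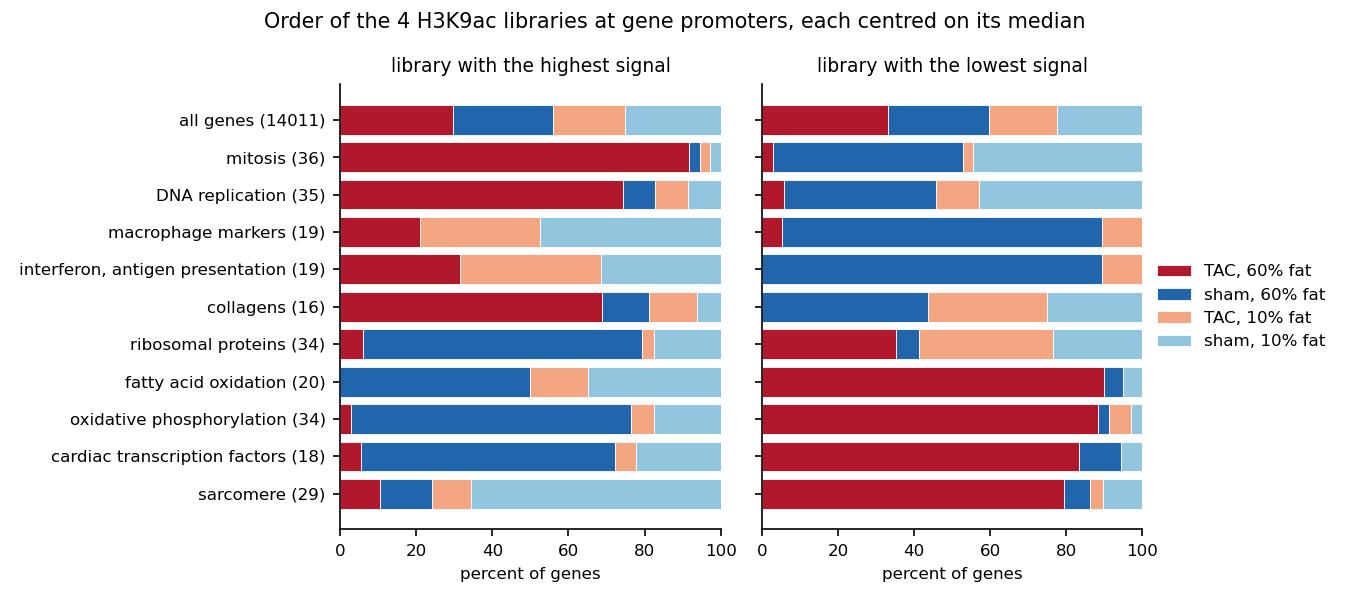
For all genes and 10 lists, the percent of genes in which each of the 4 libraries, centred on its own median, had the highest (left) or the lowest (right) promoter signal. Red and blue are TAC and sham at 60% fat, and pale red and pale blue TAC and sham at 10% fat; red fills 91.7% of the mitosis bar on the left, and blue fills 84.2% of the macrophage bar on the right.

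The ratios at 10% fat, from other mice and libraries, leaned the same way with a smaller spread. Of the 339 genes higher at 60% fat, 284 (83.8%) were above the median of all genes at 10% fat, and of the 206 lower genes 181 (87.9%) were below it, against 50% of all genes. Over all promoter regions 152 were called higher and 327 lower on both diets, while 35 were higher at 60% fat and lower at 10% fat, and 80 were lower at 60% fat and higher at 10% fat. At 10% fat 523 (2.76%) of the 18950 promoter regions were called higher and 731 (3.86%) lower. Among the 9475 strong promoters, those whose larger signal at 60% fat reached the median, 12 of the 121 higher regions and 9 of the 68 lower ones were called in the same direction at 10% fat, and none in the opposite one. A region could enter this set through the 60% fat library in which it was high. At 10% fat just 14 of all 9475 were called higher and 11 lower, so opposite calls had little room to arise. Over all 18950 promoter regions the 2 ratios had a Pearson correlation of 0.33 and a Spearman correlation of 0.36, and over the strong ones 0.57 and 0.47, as a description across regions of the same table. The interquartile range of the promoter ratio was 0.37 at 60% fat and 0.25 at 10% fat. Whether the wider spread comes from the diet or from the pools cannot be told apart with 1 library on each side. On the fat-free diet, whose libraries were normalised in another table, 248 of the 259 higher genes with a value were above that pair's median, with a median ratio of 0.65, and 153 of 169 lower genes were below it, with a median of -0.42.

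Butyrylation of lysine 9 was measured in hearts of the same diet and surgery groups. At 60% fat 14165 of the 18950 promoter regions overlapped an H3K9Bu region by at least 1 bp, and the ratios of the 2 marks had a Spearman correlation of 0.23, or 0.27 at 13100 other regions. Of 104 genes higher for H3K9ac and measured for H3K9Bu, 79 had an H3K9Bu ratio above that mark's median, and of 132 lower genes 97 were below it. The mitotic genes had a median of 0.19 for H3K9Bu over the 23 that were measured at gene level. Among the 10 highest promoter regions, those that overlapped an H3K9Bu region had an H3K9Bu ratio below 0. They were Cdk1 (-0.29), Top2a (-0.46) and Aurkb (-0.39), from low H3K9Bu signals such as 3.43 after TAC and 5.86 after sham at Cdk1. The promoters ranked next mostly lay above 0. Their H3K9Bu ratios were 1.12 at Pbk, 0.72 at Tmem119, 0.62 at Stx11, 0.525 at Sertad4, 0.32 at Ube2c, 0.08 at Spc24 and -0.54 at Tpx2. Kcnip2 was lower for both marks (-0.68 for H3K9Bu), as were Plin5 (-0.51) and Klf15 (-0.50). Actc1 had an H3K9Bu ratio of 0.07 [-1.127, 1.075], from low signals of 8 after TAC and 10.2 after sham. Its interval includes the ratios of those genes.

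At regions outside promoters the extreme ratios came from short regions called in 1 library of the pair. The highest was in Cdk19 (29.1 after TAC and 5.11 after sham, 296 bp, 2.15 [1.03, 3.21]) and the lowest in Agtpbp1 (3.14 and 23.9, 221 bp, -2.73 [-4.21, -1.33]), and all 20 regions at the 2 ends were called in just 1 of the 2 libraries. Regions called in both, singled out after their values were seen, gave smaller ratios with narrower intervals. A region assigned to Ift122 on chr6:115911032-115914616, 59295 bp from its start, had 47.3 and 18.4 at 60% fat (1.17 [0.98, 1.36]), and 30.0 and 16.7 at 10% fat. A region 107122 bp from the start of Ano10, at chr9:122186803-122187703, had 37.9 and 90.9 at 60% fat (-1.39 [-1.67, -1.12]), and 42.6 and 74.2 at 10% fat. In Cacnb2, a calcium channel subunit, a region 229460 bp into the gene had 24.8 and 53.6 (-1.23), while the gene's promoter had 23.1 and 21.5 (-0.06).

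Most genes that held several such regions had them on both sides. Of 1226 genes with at least 4 regions outside promoters, 186 had every region below the promoter median and 66 had every region above it. Over the 1094 with both values, the median of these regions and the promoter ratio had a Spearman correlation of 0.45. The lowest medians were those of Fbxw7, a ubiquitin ligase subunit (-1.30 over 5 regions), Lrrc8a, of the volume-regulated anion channel (-1.28 over 8, all called lower), Pim3 (-1.08 over 4), Mpp7 (-1.03 over 6), Trabd2b (-1.03 over 5) and Lpl. Lpl, lipoprotein lipase, supplies the heart with fatty acids, and its 8 regions had medians of 13.8 after TAC and 19.5 after sham (-1.03), beside a promoter ratio of -0.60. Fbxw7 had its promoter on the other side, with 69.8 and 51.0 (0.28). The highest were Cflar, an inhibitor of caspase-8 (0.91 over 7), Col28a1 (0.84 over 4), Sh3rf1 (0.82 over 4), Col1a1 (0.80 over 5) and Ptpre (0.79 over 6).

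The Zbtb16 gene held a long block of lower regions. It encodes PLZF, a transcription factor that glucocorticoids induce. Its 38 regions outside the promoter, the farthest 187905 bp from the start, on chromosome 9, had a median of -0.74, with 28 called lower and 37 below 0. The longest, 7591 bp, had 51.8 after TAC and 79.1 after sham at 60% fat (-0.75 [-0.84, -0.66]), and 51.9 and 77.2 at 10% fat (-0.62). A region 93304 bp from the start had 11 and 40.9 (-1.96), against 12.9 and 22.3 at 10% fat. The promoter region itself had 103.1 and 126.6 (-0.44 [-0.53, -0.36]), and 111.4 and 130.1 at 10% fat.

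On chromosome 11, the promoters of the neighbouring genes Col1a1 and Sgca lay on opposite sides. The 9 regions assigned to Col1a1, type I collagen made by fibroblasts, were all above the promoter median, from 0.31 to 1.71. The strongest, at its start (chr11:94935914-94938435), had 42.7 after TAC and 25.3 after sham (0.58), and a region 19643 bp downstream of the start had 29.0 and 9.31 (1.39 [0.95, 1.86]), against 15.6 and 8.0 at 10% fat. The files give that region and 2 others of the 9 to both Col1a1 and Sgca, so the 4 regions outside promoters assigned to Sgca had a median of 0.65, with 3 above 0. The Sgca promoter, 39648 bp from the Col1a1 start, had the ratio of -1.18 given above, and a region next to it had 24.8 and 43.3 (-0.93).

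**Figure D5:**
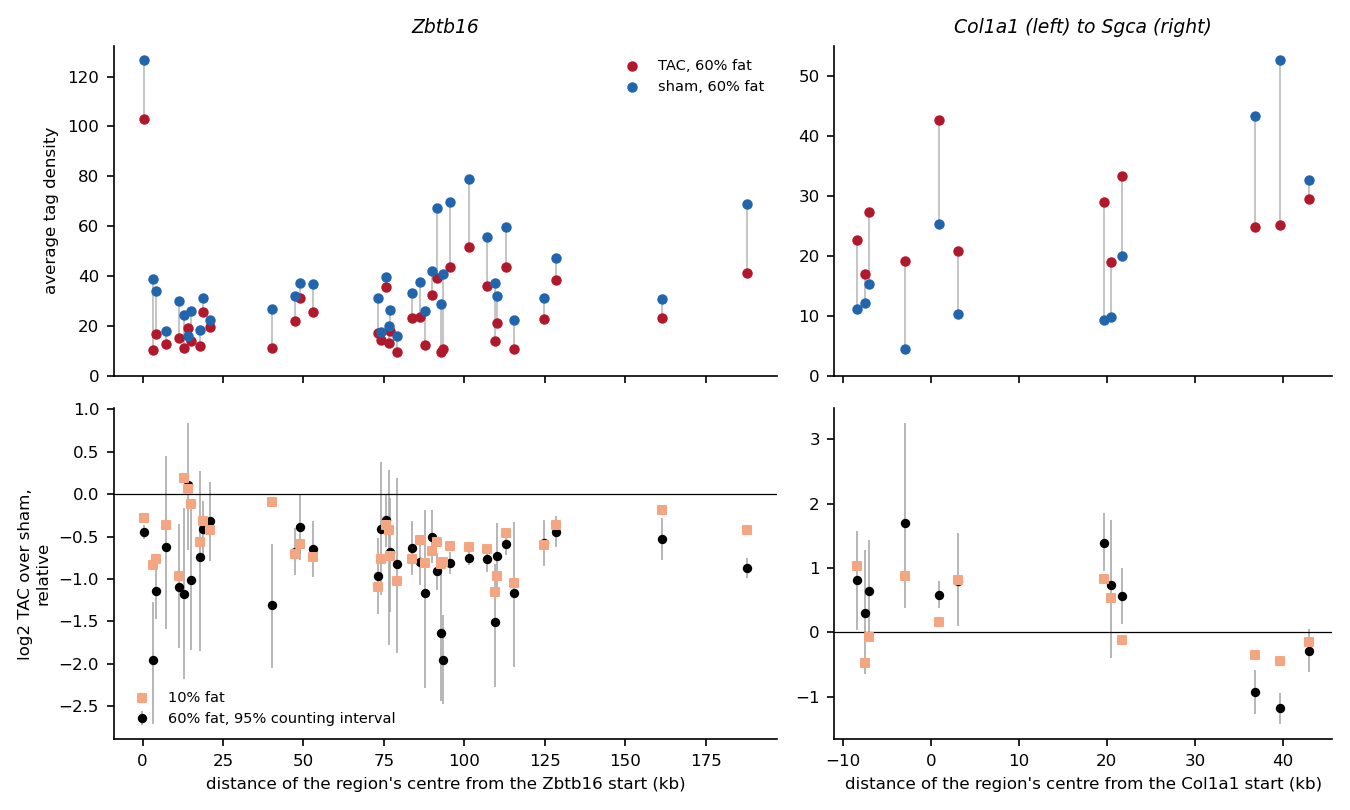
H3K9ac signal (top) and relative log2 ratio of TAC over sham (bottom) at every region assigned to Zbtb16 (left) and to Col1a1 or Sgca (right), by distance in kb of the region's centre from the Zbtb16 or Col1a1 start. Red and blue points are TAC and sham at 60% fat, black points carry 95% counting intervals and pale squares are the 10% fat ratios; 37 of 38 Zbtb16 regions outside the promoter lie below 0, and the Col1a1 regions lie above 0 while the Sgca promoter lies at -1.18.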

How the data were processed

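H3K9ac ChIP-seq was run on nuclei of heart tissue, a pool of 3 for each library, per the labels' protocols, and BWA, SICER and the mm10 build are named by the submitters' processing notes, with no versions. The deposited values are average signal, that is, tag densities (coverage) per region, over regions that the authors merged from the 4 H3K9ac libraries at 10% and 60% fat. They also deposited a mark of where each region was called. The labels give 2 pooled inputs, which were not used here. The deposited log2 ratios of TAC over sham were made by the authors from these signals, and equalled the log2 ratio of the 2 average signals in all 38150 regions, within 1e-06. The authors' estimated tag number for the larger library of the pair equalled signal times region length divided by 224, also in all 38150 within 1e-06, and the same relation gave the tags behind the Clopper-Pearson intervals. How the libraries were scaled to each other is not given in the sources used here. A pseudocount of 1 was added before log2. Genes took their strongest promoter region, after regions under the 25th percentile of mean signal had been left out. Of 16540 gene symbols in the table, 16051 matched RefSeq. The members, the 38 gene lists and the named genes were chosen with earlier results of these data known. Named were the 10 highest and lowest regions of each class, the 5 highest and lowest genes by other regions, and the extremes of each list, with exceptions stated; some of these genes are not reported here. Ratios and intervals were tested on simulated data. Alternatives were the centring, peak signal, pseudocount, filter, presence and fold. Python 3.11.15, pandas 2.3.3, scipy 1.17.1 and statsmodels 0.14.6 were used.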

Additional observations from a re-analysis of the deposited data

How the results depend on the processing

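At 2-fold, 214 promoter regions were higher and 796 lower, 498 other regions were higher and 1065 lower, and 58 genes were higher and 35 lower. Restricted to regions called in both libraries and centred anew, the counts were 287 and 332 at promoters, 186 and 589 elsewhere, and 224 higher genes. Restricted to regions called in both 10% fat libraries, a setting chosen after seeing the data, they were 405 and 437 at promoters and 379 and 948 elsewhere. At or above the 25th percentile of signal they were 515 and 679 at promoters and 647 and 1608 elsewhere. A pseudocount of 5 left 632 higher promoter regions, 1246 higher other regions and 222 higher genes. Without centring, 1756 promoter regions, 3155 other regions and 781 genes were higher and 92 genes lower, and 234 promoter regions were higher and 214 lower on both diets, against 152 and 327. Asking for 6 other regions left 16 genes with all above and 71 with all below. With the signal trend removed 269 genes were higher and 256 lower. Of 278 list medians under alternatives 21 turned sign, 10 of them without centring. No paired analysis was possible because each group had 1 library, and no library could be left out. At short regions of low signal the tags limit what a ratio shows.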

Other observations

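Histone genes, a set chosen after their values were seen, lay above the median of all genes at nearly every region at 60% fat. The 53 measured genes whose symbol starts with Hist lay on 27 distinct regions, of which 6 were at least 1.5-fold higher, none was that much lower and 25 were above the median of all genes. Their median was 0.39 at 60% fat and 0.23 at 10% fat, where 24 of the 27 were above the median. After the cluster at Hist2h3c2 the highest was Hist1h3g, with 44.1 after TAC and 19.6 after sham (0.97 [0.67, 1.28]), against 25.4 and 20.6 at 10% fat. The lowest was the region that Hist4h4 shares with H2afj, with 73.6 and 68.5 (-0.06). Near-identical copies in these clusters may share sequenced fragments, so values of single histone genes are uncertain.

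Promoters on the X chromosome had a median ratio of 0.09 over 506 regions at 60% fat and -0.02 at 10% fat, against 0.00 over 18440 autosomal promoters at 60% fat.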
